A study of Homo sapiens with 3 samples.

Results

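Integrins and laminins are the receptors and the ligands by which epithelial cells hold on to their basement membrane. Their genes were taken as those with a coding (NM) transcript row in all 3 tables and a symbol of the form ITGA, ITGB or LAMA, LAMB or LAMC followed by the number or letter of the chain. This rule gave 38 of 19262 genes, of which 37 are described, namely 18 integrin alpha chains, 8 integrin beta chains and 11 laminin chains, with 68 NM rows in all. The values are ribosome footprints (RFP), pieces of RNA shielded by a ribosome from digestion, counted per transcript in 3 human lung cell lines. H1299 and A549 are lines of non-small cell lung cancer, H1299 from a lymph node metastasis and A549 from an adenocarcinoma, and HBE is a line of bronchial epithelial cells. All 3 were grown untreated in complete DMEM medium, and each line gave 1 library. A ratio between lines therefore compares 2 libraries without replicates, no p-value can be given, and the intervals given cover counting error only. In such bulk samples, fewer cells that make a chain, less of its RNA per cell and fewer ribosomes on that RNA cannot be told apart.

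An integrin is a pair of an alpha and a beta chain that binds matrix outside the cell and, through talin and kindlin, actin inside it. The pair α6β4 is the exception, since it is tied to keratin filaments in hemidesmosomes. A laminin is a cross-shaped trimer of an alpha, a beta and a gamma chain, and its alpha chain carries the main binding sites for integrins. Laminin-332, which holds the chains LAMA3 and LAMB3, is the laminin of hemidesmosomes and is known for its role in the bronchial epithelium, where α3β1 and α6β4 bind it.

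The libraries held 35751992 mapped reads for H1299, 38268527 for A549 and 43580281 for HBE, of which 28478839, 31304697 and 34505579 lay on NM rows. Levels are given as reads summed over the NM rows of a gene and scaled to 1000000 NM reads per library (RPM), and levels of different genes are compared only per kilobase of transcript. TREML2 alone took 15.2%, 15.3% and 19.0% of the NM reads of H1299, A549 and HBE. On this scale the median gene lay 0.38 higher in H1299 and 0.35 higher in A549 than in HBE on the log2 scale, and 0.02 higher in H1299 than in A549, so calls are also given relative to the median gene. The basal keratins KRT5 and KRT17 had 72 and 96 reads in H1299, 104 and 46 in A549, and 11262 and 34593 in HBE. VIM, the intermediate filament of mesenchymal cells, had 43694 reads in H1299, 15327 in A549 and 124 in HBE. CDKN2A, which is known to be deleted in A549, had 680 reads in H1299, 153 in A549 and 147 in HBE. Thus CDKN2A set A549 apart from H1299 but not from HBE. The level per kb of the olfactory receptor genes, which are not known to be made in lung lines, served as a measure of reads on genes of this kind. Its 95th percentile over 377 genes was 6.15 in H1299, 6.13 in A549 and 4.24 in HBE, and its median was 0.811, 0.845 and 0.583.

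Promoters of LAMA3 and LAMB3 are shown first, since LAMB3 was among the members that differed most between the lines. RefSeq gives promoter windows of 300 bases, from 250 before to 50 after a start site (table build GRCh38.p14), for 26 of the 37 members. Of these, 32 of 33 windows were found as an exact match in GRCh37, which is the build of hg19, and the positions refer to it. The first window belongs to the start of the short LAMA3 transcripts NM_000227 and NM_001127718 on the plus strand, chr18:21452734-21453033. The second belongs to LAMB3 on the minus strand, chr1:209824670-209824969, and is 1 of 3 windows of that gene. The third belongs to LAMA4 on the minus strand, chr6:112575720-112576019, which is set beside them because LAMA4 went the other way in A549. Capitals mark the letters TGANTCA, the AP-1 element, which reads the same on both strands.
LAMA3: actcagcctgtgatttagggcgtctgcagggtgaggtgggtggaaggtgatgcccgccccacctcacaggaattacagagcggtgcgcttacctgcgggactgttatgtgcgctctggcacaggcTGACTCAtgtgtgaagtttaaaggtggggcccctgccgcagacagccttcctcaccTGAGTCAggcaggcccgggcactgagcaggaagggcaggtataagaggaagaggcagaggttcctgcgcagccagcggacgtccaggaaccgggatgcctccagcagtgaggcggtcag
LAMB3: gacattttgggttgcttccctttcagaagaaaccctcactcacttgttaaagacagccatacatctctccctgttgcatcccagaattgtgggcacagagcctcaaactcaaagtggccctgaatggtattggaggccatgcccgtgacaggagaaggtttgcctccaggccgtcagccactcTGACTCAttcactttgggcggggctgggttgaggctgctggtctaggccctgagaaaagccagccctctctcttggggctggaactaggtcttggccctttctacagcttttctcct
LAMA4: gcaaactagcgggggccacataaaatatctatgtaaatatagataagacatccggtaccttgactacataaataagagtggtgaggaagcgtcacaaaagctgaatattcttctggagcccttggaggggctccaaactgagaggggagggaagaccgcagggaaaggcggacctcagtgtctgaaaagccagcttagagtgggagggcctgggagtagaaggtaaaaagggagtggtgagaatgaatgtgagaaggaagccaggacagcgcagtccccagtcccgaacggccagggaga
The element begins 125 and 69 bases before the start site in LAMA3 and 67 bases before it in LAMB3, and these letters are not in the LAMA4 window. They are also absent from the other LAMB3 windows, with start sites at 209825674 and 209825770. The counted LAMB3 transcripts were not matched to any of its windows, so the start site they use is not known here. Of the 33 member windows 3 held the element, the third being a window of ITGA5, whose element begins 6 bases before the start site. Over all 35116 windows of the table the share was 7.71%. ITGA2, ITGB6, ITGB8 and LAMB2, which like LAMB3 fell in both cancer lines, had windows without the element. ITGB4, which also fell in both, had no window. LAMA3 and ITGA5 held the element and were called in no pair. The element thus did not follow the direction of the ratios. The other motifs searched, on both strands, were the E-box CAGGTG, which can overlap the AP-1 element at its end, the GC box GGGCGG and the TATA box TATAAA. These motifs were in 8, 19 and 2 member windows and in 20.6%, 45.0% and 11.5% of all windows. A match is a description of letters, and binding was not measured.

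LAMB3, the beta chain particular to laminin-332 and its close relatives, fell in both cancer lines, and LAMA3, its alpha chain, did not pass the limit. A gene was called when the exact 95% counting interval of its ratio lay wholly beyond 2-fold and the pair held at least 20 reads. Of all genes compared, 8.05% were called higher and 4.94% lower in H1299 against HBE, 6.14% and 3.36% in A549 against HBE, and 4.09% and 4.82% in H1299 against A549. LAMB3 (chromosome 1, minus strand, 209788215 to 209825770) had 711 reads in H1299, 299 in A549 and 5288 in HBE, or 25.0, 9.55 and 153 RPM. It was 6.14 times lower in H1299 than in HBE (5.68 to 6.65) and 16.0 times lower in A549 than in HBE (14.3 to 18.1). HBE was the high library by far, and the remaining 2 also differed, with LAMB3 2.61 times higher in H1299 than in A549 (2.28 to 3.002). LAMA3 (chromosome 18, plus strand, 21269417 to 21536186) had 897 reads in H1299, 1727 in A549 and 1660 in HBE, or 31.5, 55.2 and 48.1 RPM, and was called in no pair. On the scale of NM reads LAMA3 was highest in A549, and with TMM factors it was highest in HBE.

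**Figure D1:**
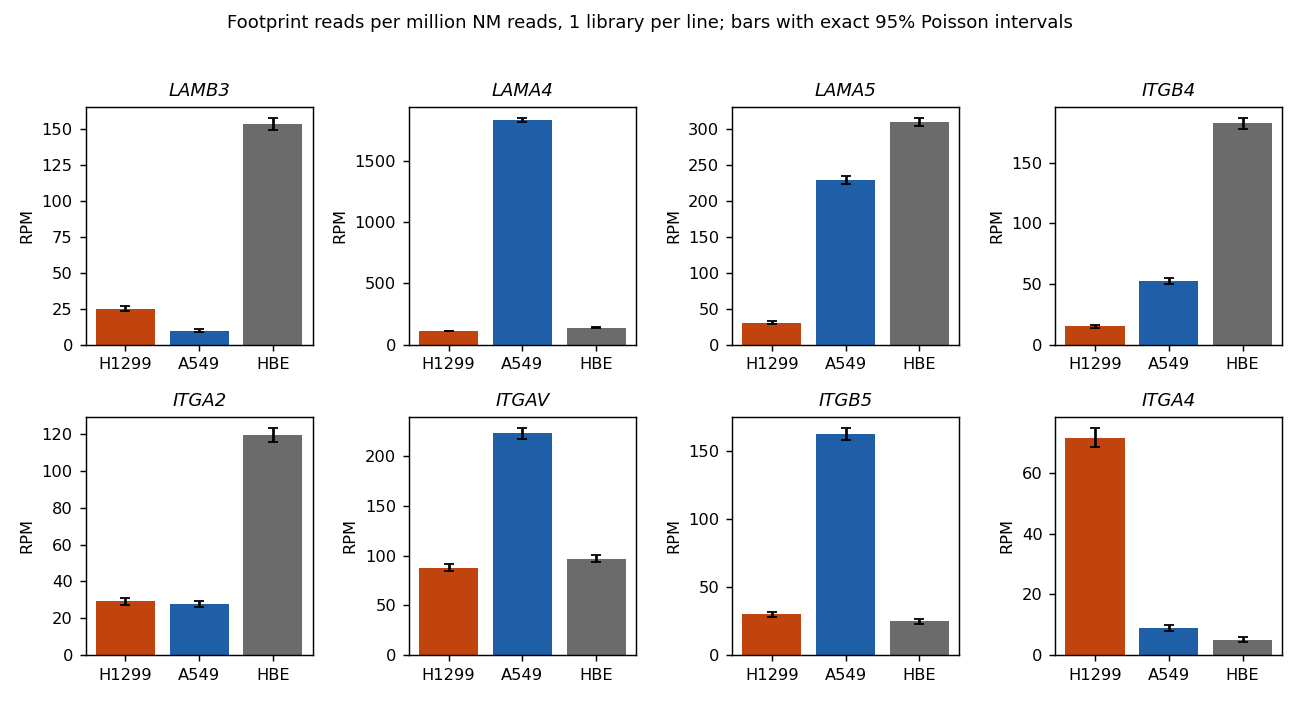
Reads scaled to 1000000 NM reads per library (RPM, vertical axes from 0, a scale of its own for each gene) of 8 integrin and laminin genes in H1299, A549 and HBE, 1 library each, with exact 95% Poisson intervals as error bars. LAMB3 had 25.0 RPM in H1299, 9.55 in A549 and 153 in HBE, LAMA4 was high in A549 alone with 1840 RPM, and ITGA4 was high in H1299 with 71.7 RPM.

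The balance of LAMA3 and LAMB3 also differed. Per kb, LAMA3 was at 0.532 times LAMB3 in H1299, at 2.49 times in A549 and at 0.141 times in HBE. LAMA3 was thus below LAMB3 in H1299 and HBE and above it in A549. Most LAMA3 reads lay on the long transcript NM_001127717, with 857 in H1299, 1645 in A549 and 1512 in HBE. The short transcript NM_000227, whose start lies in the window printed above, had 7 reads in H1299, 64 in A549 and 138 in HBE. Its reads were 16.3 times fewer, as RPM, in H1299 than in HBE (7.69 to 41.2) and 1.96 times fewer in A549 than in HBE (1.44 to 2.67). The mapping assigned reads that both transcripts share, so these counts do not measure the isoforms on their own.

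LAMA4, an alpha chain known for the basement membranes of blood vessels and for mesenchymal cells, was the member with the most reads in A549. LAMA4 (chromosome 6, minus strand, 112429134 to 112576141) had 3167 reads in H1299, 57602 in A549 and 4813 in HBE, or 111, 1840 and 139 RPM. It was 13.2 times higher in A549 than in HBE (12.8 to 13.6) and 16.5 times lower in H1299 than in A549 (16.0 to 17.2), while H1299 and HBE were 1.25 times apart. Only the A549 library stood out. The reads lay mainly on NM_002290, with 3109 in H1299, 57363 in A549 and 4703 in HBE, and the row NM_001105208, of 783 nt, had 35, 206 and 84. Endothelial markers (PECAM1, CDH5, KDR and VWF) summed to 55.7 RPM in H1299, 50.5 in A549 and 56.5 in HBE, and fibroblast markers (COL1A1, COL1A2, DCN and LUM) to 11.3, 12.9 and 11.4 RPM. None of the 4 fibroblast markers was above the olfactory receptor level in any line, and of the 4 endothelial markers CDH5 alone was above it, in HBE, with 4.98 per kb. The part of such cells in the LAMA4 values was not tested.

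LAMA5, the alpha chain found widely under epithelia, was low in H1299. LAMA5 (chromosome 20, minus strand, 60883011 to 60942368) had 868 reads in H1299, 7177 in A549 and 10702 in HBE, or 30.5, 229 and 310 RPM. It was 10.2 times lower in H1299 than in HBE (9.49 to 10.9), 7.52 times lower in H1299 than in A549 (7.01 to 8.08) and 1.35 times lower in A549 than in HBE (1.31 to 1.39), which was not called. LAMB1 (chromosome 7, minus strand, 107564244 to 107643658), the beta chain of laminins in most tissues, had 1566, 9687 and 10446 reads in H1299, A549 and HBE. It was 5.51 times lower in H1299 than in HBE (5.22 to 5.81) and 5.63 times lower in H1299 than in A549 (5.33 to 5.94), whereas A549 and HBE were 1.02 times apart (0.994 to 1.05). LAMC1 (chromosome 1, plus strand, 182992555 to 183114727), the gamma chain that most laminins share, had 4515 reads in H1299, 8544 in A549 and 12306 in HBE. It fell 2.25-fold in H1299 against HBE (2.17 to 2.33) and was called in no other pair. The chains that make up α5β1γ1 thus all fell in H1299 against HBE, by 10.2, 5.51 and 2.25 times. The epithelium markers (EPCAM, CDH1, KRT8 and KRT18) moved with LAMA5 in part, with a summed level of 1417 RPM in H1299, 9752 in A549 and 3055 in HBE. EPCAM and CDH1, which hold epithelial cells together, had 61 and 85 reads in H1299, 541 and 884 in A549, and 18183 and 4587 in HBE. Of the 4 markers, 0 were called higher and 3 lower in H1299 against HBE, 2 and 2 in A549 against HBE, and 0 and 4 in H1299 against A549. EPCAM and CDH1 were below the olfactory receptor level in H1299, CDH1 also in A549, and the part of this difference in the values of the laminin chains was not tested. LAMB2 (chromosome 3, minus strand, 49158547 to 49170551), the beta chain of kidney and nerve-muscle basement membranes, had 924 reads in H1299, 1381 in A549 and 3633 in HBE, and was 3.25 times lower in H1299 (3.02 to 3.49) and 2.39 times lower in A549 (2.24 to 2.54) than in HBE.

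Among the laminin chains of low level, LAMC3 and LAMA2 rose in H1299. LAMC3 (chromosome 9, plus strand, 133884561 to 133969860), a gamma chain known from retina and cortex, had 664 reads in H1299, 263 in A549 and 195 in HBE. It was 4.13 times higher in H1299 than in HBE (3.51 to 4.87) and 2.78 times higher in H1299 than in A549 (2.40 to 3.21). LAMA2 (chromosome 6, plus strand, 129204283 to 129837711), the alpha chain of skeletal muscle, had 815 reads in H1299, 426 in A549 and 292 in HBE, and was 3.38 times higher in H1299 than in HBE (2.95 to 3.88). Both stayed below the olfactory receptor level of 6.15 per kb in H1299, LAMC3 with 3.82 and LAMA2 with 2.95 per kb. The muscle marker DES had 862 reads in H1299, 428 in A549 and 268 in HBE, or 30.3, 13.7 and 7.77 RPM. The other muscle markers were highest in A549, MYH2 with 3.69, 4.34 and 2.67 RPM and ACTA1 with 2.21, 2.36 and 1.13 RPM in H1299, A549 and HBE. The sum of DES, MYH2 and ACTA1 was 36.2, 20.4 and 11.6 RPM, most of it DES. The part of these markers in the LAMA2 values was not tested. LAMA1, the alpha chain of early embryos, had 297 reads in H1299, 387 in A549 and 295 in HBE. LAMB4 had 82 reads in H1299, 124 in A549 and 85 in HBE. Neither was called in any pair.

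The make-up of the laminin chains differed between the lines. Per kb, LAMA4 made up 63.0% of the alpha chains in H1299, 90.1% in A549 and 39.3% in HBE, and LAMA5 10.1%, 7.005% and 48.6%. HBE was the library in which LAMA5 exceeded LAMA4. LAMB1 made up 44.2% of the beta chains in H1299, 83.4% in A549 and 48.9% in HBE, and LAMB3 27.2%, 3.49% and 33.5%. In A549 the level per kb of LAMA4 was 7.45 times that of LAMC1 (7.28 to 7.62) and 4.89 times that of LAMB1 (4.78 to 4.99), although a laminin trimer holds its chains in equal number. In H1299 LAMA4 was at 0.828 times LAMC1, and in HBE at 0.484 times. Per kb of coding sequence LAMA4 was at 0.619 times LAMC1 in H1299, 5.95 times in A549 and 0.345 times in HBE. On that scale it was at 5.83 times LAMB1 in A549.

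**Figure D2:**
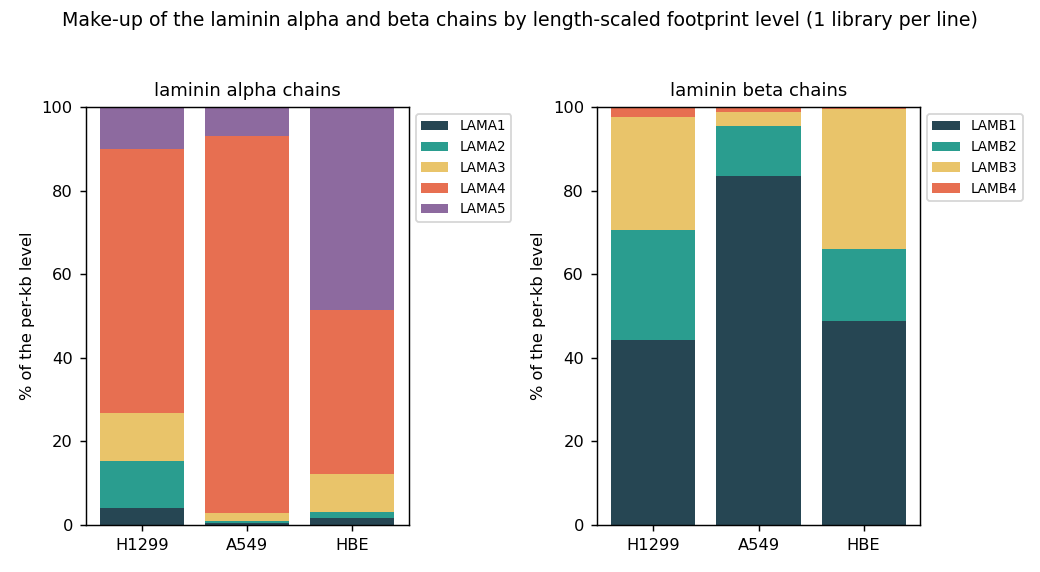
Make-up of the laminin alpha and beta chains (vertical axes, percent of the summed level per kb of the class) in H1299, A549 and HBE, 1 library each. LAMA4 fills 63.0%, 90.1% and 39.3% of the alpha chains, and the share of LAMB3 among the beta chains is 27.2%, 3.49% and 33.5%.

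Of the integrin chains that bind laminin, ITGB4 fell in both cancer lines and on the scale of NM reads the alpha chains were called in no pair. ITGB4 (chromosome 17, plus strand, 73717408 to 73753899), the beta chain of hemidesmosomes with a long tail inside the cell, had 427 reads in H1299, 1638 in A549 and 6303 in HBE, or 15.0, 52.3 and 183 RPM. It was 12.2 times lower in H1299 than in HBE (11.04 to 13.5), 3.49 times lower in A549 than in HBE (3.31 to 3.69), and 3.49 times lower in H1299 than in A549 (3.14 to 3.89). Its only known partner, ITGA6 (chromosome 2, plus strand, 173292082 to 173371187), had 15611 reads in H1299, 8836 in A549 and 9977 in HBE, or 548, 282 and 289 RPM. ITGA6 was 1.90 times higher in H1299 than in HBE (1.85 to 1.94) and 1.94 times higher in H1299 than in A549 (1.89 to 1.99), both just inside the limit and not called. ITGA6 per kb was 37.2 times ITGB4 in H1299 (33.8 to 41.0), 5.49 times in A549 (5.21 to 5.80) and 1.61 times in HBE (1.56 to 1.67). Per kb of coding sequence these ratios were 58.9, 8.70 and 2.55, so they depend on the length used beyond the counting intervals. HBE was thus the line with the most even levels of these chains. Nearly all ITGA6 reads lay on NM_000210, with 15553 in H1299, 8799 in A549 and 9946 in HBE.

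ITGA3 (chromosome 17, plus strand, 48133332 to 48167845), which pairs with β1 to bind laminin-332 and the laminins with LAMA5, had 4981 reads in H1299, 7304 in A549 and 11868 in HBE, or 175, 233 and 344 RPM. It was 1.97 times lower in H1299 than in HBE (1.90 to 2.03), which was not called on the scale of NM reads. It was called as lower relative to the median gene and under some other scalings. Among ITGA3 and ITGA6 per kb, ITGA3 made up 26.9% in H1299, 48.8% in A549 and 57.8% in HBE. ITGA7, the laminin receptor of muscle, had 131 reads in H1299, 178 in A549 and 107 in HBE, was below the olfactory receptor level in all 3 lines and was called in no pair.

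The partners of these chains in hemidesmosomes were described by a list of 5 genes. In H1299 against HBE 1 was called higher and 3 lower, and in A549 against HBE 0 and 2, which became 0 and 4, and 0 and 3, relative to the median gene. None was called in H1299 against A549, and the median log2 ratios were -1.13, -0.79 and 0.28 in these pairs, beside 0.38, 0.35 and 0.02 for all genes. DST, whose epithelial form links α6β4 to keratin, had 171 RPM in H1299, 133 in A549 and 374 in HBE, and fell 2.18-fold in H1299 (2.11 to 2.25) and 2.82-fold in A549 (2.72 to 2.92). COL17A1, a collagen of the hemidesmosome named here after its values were seen, fell 7.70-fold in H1299 (6.88 to 8.63) and 10.9-fold in A549 (9.59 to 12.4) against HBE. COL7A1, the collagen of anchoring fibrils, had 18.9 RPM in H1299, 40.7 in A549 and 70.3 in HBE, and fell 3.71-fold in H1299 against HBE (3.38 to 4.08). PLEC, the plectin that binds the ITGB4 tail and many other filaments, had 371 RPM in H1299, 305 in A549 and 155 in HBE. It rose 2.39-fold in H1299 against HBE (2.31 to 2.47), a call that was lost relative to the median gene. CD151, a tetraspanin that associates with α3 and α6 integrins, had 103, 155 and 177 RPM in H1299, A549 and HBE and was called only in H1299 against HBE, as lower, relative to the median gene. The markers of basal airway epithelium (KRT5, KRT14, KRT17 and TP63) were highest in HBE, as were ITGB4 and LAMB3. Their summed level was 10.1 RPM in H1299, 14.4 in A549 and 1396 in HBE. Between H1299 and A549, where ITGB4 was lower and LAMB3 higher in H1299, none of these markers was called. KRT5, KRT17 and TP63 were above the olfactory receptor level in HBE and no marker of this list was above it in H1299 or A549, and the part of such cells in the result was not tested.

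The collagen receptor ITGA2 fell in both cancer lines to similar levels. ITGA2 (chromosome 5, plus strand, 52285170 to 52390609), the alpha chain of the α2β1 receptor of epithelia and platelets, had 830 reads in H1299, 866 in A549 and 4127 in HBE, or 29.1, 27.7 and 120 RPM. It was 4.10 times lower in H1299 (3.81 to 4.43) and 4.32 times lower in A549 (4.02 to 4.66) than in HBE, whereas H1299 and A549 were 1.05 times apart (0.957 to 1.16). ITGA1, ITGA10 and ITGA11, which bind collagen as partners of β1 in mesenchymal cells, cartilage and fibroblasts, were called in no pair. ITGA10 had 1076 reads in H1299, 788 in A549 and 683 in HBE, and with 7.28 per kb of transcript it was above the olfactory receptor level in H1299 alone. Per kb of coding sequence ITGA10 was above it in all 3 lines, with 10.8 in H1299, 7.19 in A549 and 5.65 in HBE beside levels of 6.22, 6.31 and 4.34. ITGA1 had 333, 396 and 649 reads in H1299, A549 and HBE, and ITGA11 401, 474 and 279.

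ITGB1 (chromosome 10, minus strand, 33176201 to 33294720), the common partner of many alpha chains, was the most abundant integrin beta chain in each line. It had 11315 reads in H1299, 31832 in A549 and 18844 in HBE, or 397, 1017 and 546 RPM, which is 84.6% of the integrin beta reads in H1299 (84.0 to 85.2), 80.3% in A549 (79.9 to 80.7) and 67.1% in HBE (66.6 to 67.7). ITGB1 was 2.56 times lower in H1299 than in A549 (2.50 to 2.62), and the ratios of 0.728 in H1299 and 1.86 in A549 against HBE were not called. Per kb, ITGA6 was at 0.921 times ITGB1 in H1299, at 0.185 times in A549 and at 0.353 times in HBE. Both chains were thus at similar levels in H1299 alone.

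ITGAV and its partner ITGB5 were highest in A549, as was ITGB1. ITGAV (chromosome 2, plus strand, 187454737 to 187545628), the alpha chain that binds the RGD sequence of fibronectin and vitronectin, had 2496 reads in H1299, 6989 in A549 and 3350 in HBE, or 87.6, 223 and 97.1 RPM. It was 2.30 times higher in A549 than in HBE (2.21 to 2.40), a call that was lost relative to the median gene, and 2.55 times lower in H1299 than in A549 (2.43 to 2.67). ITGB5 (chromosome 3, minus strand, 124480795 to 124620265), a vitronectin-binding partner of αV, had 848 reads in H1299, 5076 in A549 and 848 in HBE, or 29.8, 162 and 24.6 RPM. It was 6.60 times higher in A549 than in HBE (6.13 to 7.10) and 5.45 times lower in H1299 than in A549 (5.06 to 5.86). The equal counts of H1299 and HBE come to a ratio of 1.21 because the libraries differ in size.

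ITGB6 and ITGB8, further partners of αV, fell in both cancer lines. ITGB6 (chromosome 2, minus strand, 160956178 to 161056824), which is known to be restricted to epithelia and to activate latent TGF-β, had 151 reads in H1299, 234 in A549 and 642 in HBE. It was 3.51 times lower in H1299 (2.93 to 4.22) and 2.49 times lower in A549 (2.14 to 2.90) than in HBE. When only the NM row with most reads was counted, the A549 value was no longer called. ITGB8 (chromosome 7, plus strand, 20370325 to 20455377), also an activator of TGF-β with αV, had 170 reads in H1299, 213 in A549 and 775 in HBE, and was 3.76 times lower in H1299 (3.18 to 4.47) and 3.30 times lower in A549 (2.83 to 3.86) than in HBE. Both were below the olfactory receptor level per kb of transcript in each library, ITGB6 with 4.21 in HBE closely so. Per kb of coding sequence both were above it in HBE, ITGB6 with 7.87 and ITGB8 with 9.74 beside 4.34, and below it in H1299 and A549. ITGB3, the partner of αV and of the platelet chain αIIb, had 120 reads in H1299, 132 in A549 and 86 in HBE and was called in no pair. Of the summed level per kb of these partners, ITGB5 made up 76.2% in H1299, 93.5% in A549 and 49.9% in HBE. Per kb of coding sequence the shares of ITGB5 were 65.3%, 89.5% and 35.5%. HBE had the most even division on both scales. There ITGB6 and ITGB8 made up 29.0% and 17.6% per kb of transcript, and 27.2% and 33.7% per kb of coding sequence.

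Ligands of these receptors were described by a list of 10 matrix genes, of which 4 were called higher and 2 lower in H1299 against HBE, and likewise in A549 against HBE, with 3 each way in H1299 against A549. Relative to the median gene these counts were 4 and 3, 3 and 4, and 3 and 3, and the list had median log2 ratios of 0.22, 0.38 and -0.15. FN1, fibronectin, had 918 reads in H1299, 13611 in A549 and 905 in HBE, and was thus high in A549 alone. FN1 was 16.6 times higher in A549 than in HBE (15.5 to 17.8) and 13.5 times lower in H1299 than in A549 (12.6 to 14.4). SPP1, osteopontin, had 1961 reads in H1299, 6418 in A549 and 56 in HBE. CYR61, a matrix protein that binds several integrins, was highest in H1299, with 7753 reads against 783 in A549 and 2064 in HBE. THBS1, thrombospondin, had 2131, 2771 and 6375 reads in H1299, A549 and HBE and fell 2.47-fold in H1299 against HBE (2.35 to 2.59). Of 9 further basement membrane genes and laminin receptors, 1 was called higher and 6 lower in H1299 against HBE, 1 and 4 in A549 against HBE, and 0 and 4 in H1299 against A549, with median log2 ratios of -1.93, -0.37 and -0.65. DAG1, the dystroglycan that binds the LG domains of laminin, had 48.1 RPM in H1299, 73.4 in A549 and 190 in HBE, and fell 3.94-fold in H1299 (3.71 to 4.18) and 2.58-fold in A549 (2.46 to 2.71). SDC1, a heparan sulfate receptor, had 9.80 RPM in H1299, 77.9 in A549 and 87.2 in HBE and fell 8.90-fold in H1299 against HBE (7.87 to 10.1). AGRN, agrin, had 51.2, 118 and 153 RPM in H1299, A549 and HBE and fell 2.98-fold in H1299 against HBE (2.81 to 3.16). HSPG2, perlecan, had 45.999, 98.5 and 50.8 RPM and fell 2.14-fold in H1299 against A549 (2.01 to 2.29).

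ITGA4 was high in H1299 alone. ITGA4 (chromosome 2, plus strand, 182321929 to 182403667), the alpha chain of leukocytes and some mesenchymal cells that binds VCAM-1 and fibronectin, had 2041 reads in H1299, 276 in A549 and 172 in HBE, or 71.7, 8.82 and 4.98 RPM. ITGA4 was 14.4 times higher in H1299 than in HBE (12.3 to 16.9) and 8.13 times higher in H1299 than in A549 (7.17 to 9.25). Per kb its level was 11.8 in H1299, above the olfactory receptor level, and 1.45 in A549 and 0.820 in HBE, between the median and the 95th percentile of the olfactory receptors. Of the partners of α4 only ITGB1 was above that level in H1299, and ITGB7 was below it with 131 reads in H1299, 331 in A549 and 191 in HBE. The leukocyte markers PTPRC, CD3E and CD14 were below the olfactory receptor level in all 3 lines and CD68 above it in all 3. The summed level over these 4 genes was 53.9 RPM in H1299, 38.1 in A549 and 29.2 in HBE, and CD68 made up 34.5 RPM of it in H1299. PTPRC had 15.6, 18.0 and 9.85 RPM in H1299, A549 and HBE, CD3E 0.983, 1.31 and 1.07, and CD14 2.74, 5.27 and 5.59. CD68 alone was thus highest in H1299. CD68, a lysosomal protein of macrophages and other cells, had 983 reads in H1299, 426 in A549 and 436 in HBE, and its part in the ITGA4 values was not tested. ITGA9, the closest relative of α4 among the alpha chains, had 106, 111 and 74 reads in H1299, A549 and HBE and was called in no pair.

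The remaining integrins were low in every line. The 7 leukocyte integrin genes ITGAD, ITGAE, ITGAL, ITGAM, ITGAX, ITGB2 and ITGB7, which serve the adhesion of white blood cells, had 59 to 459 reads in H1299, 48 to 338 in A549 and 42 to 375 in HBE. None was called in any pair, and none was above the olfactory receptor level per kb of transcript, while per kb of coding sequence ITGB2 was above it in HBE, with 4.57 beside 4.34. Their median log2 ratios were 0.52 for H1299 and 0.33 for A549, each against HBE, and 0.30 for H1299 against A549. ITGA2B, the platelet chain αIIb, had 114 reads in H1299, 107 in A549 and 67 in HBE, and ITGA8, an RGD receptor of kidney and smooth muscle, had 188, 196 and 126. ITGA5, the alpha chain of the main fibronectin receptor α5β1, had 628 reads in H1299, 715 in A549 and 532 in HBE, or 22.1, 22.8 and 15.4 RPM. It was below the olfactory receptor level per kb of transcript in all 3 lines, with 5.17, 5.35 and 3.61, and above it per kb of coding sequence in all 3, with 7.01, 7.26 and 4.90. FN1, its ligand, was thus high in A549 with no difference of this size in ITGA5.

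Above the olfactory receptor level were 10 of the 37 members in H1299, 11 in A549 and 14 in HBE, beside 34.1%, 34.7% and 39.6% of all genes. In all 3 lines these were ITGA3, ITGA6, ITGAV, ITGB1, ITGB5, LAMA4, LAMB1 and LAMC1, and 21 members were above it in none. The 21 low members had a median log2 ratio of 0.57 in H1299 against HBE and 0.68 in A549 against HBE, beside 0.41 and 0.53 for the olfactory receptor genes, so ratios of this size were common among genes at that level. Per kb of transcript, ITGA2, LAMA3 and LAMB3 were above the level in HBE alone, ITGA4 and ITGA10 in H1299 alone, and ITGB4, LAMA5 and LAMB2 in A549 and HBE. Per kb of coding sequence ITGA2 was above it in all 3 lines, with 8.23 in H1299, 7.81 in A549 and 33.8 in HBE, ITGA10 likewise in all 3, and LAMB3 in H1299 with 7.10 as well as in HBE with 43.6. LAMA3 in HBE and ITGA4 in H1299 were above it in these lines alone on both scales.

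**Figure D3:**
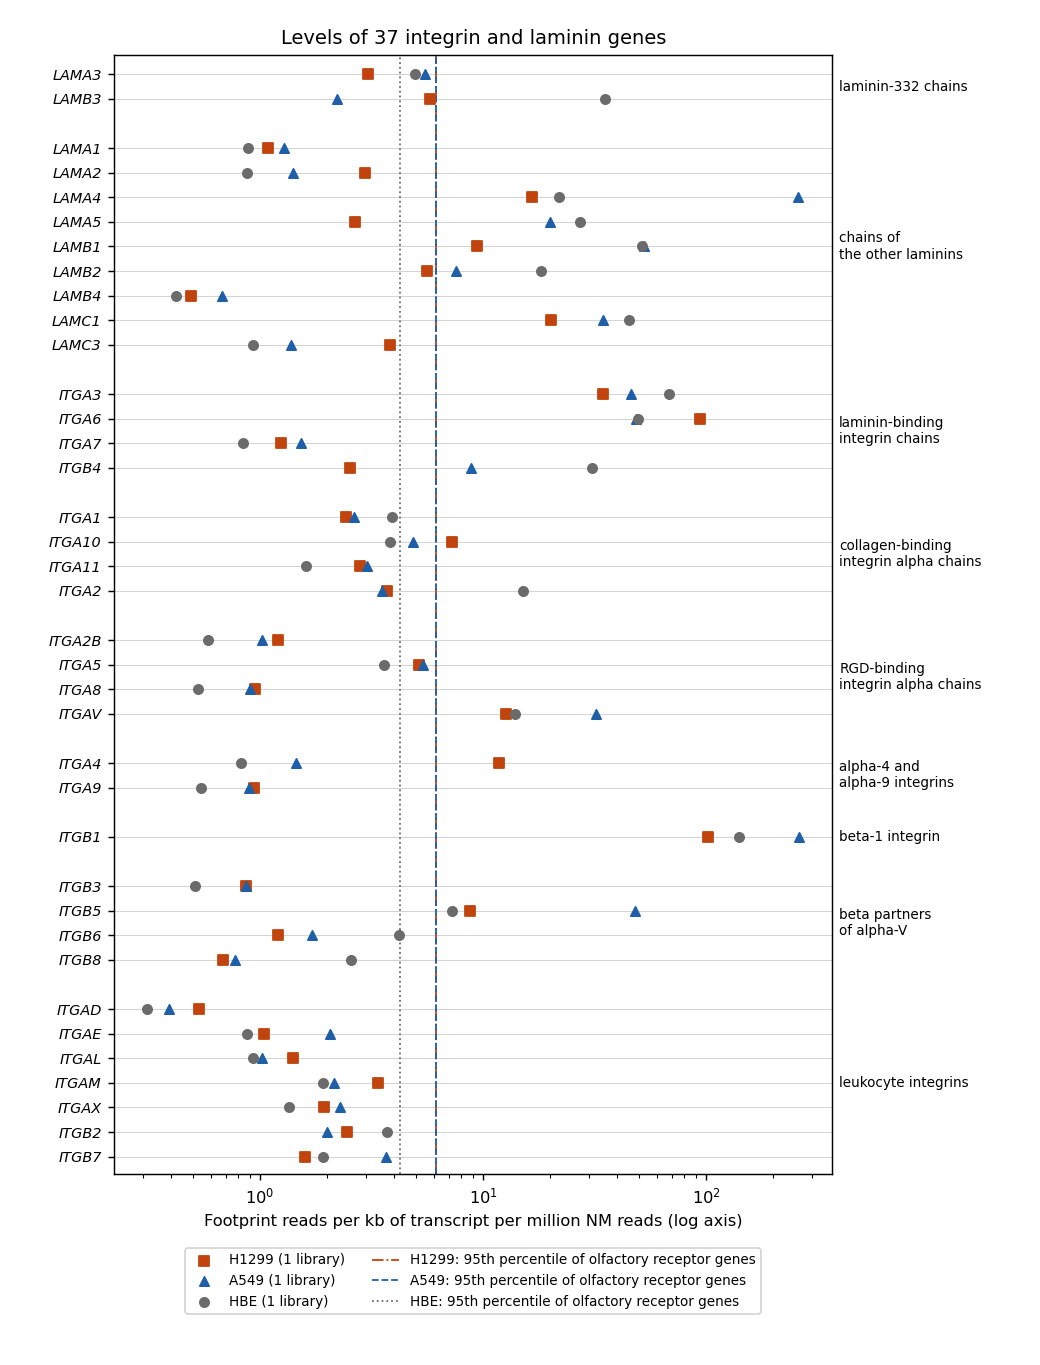
Levels of 37 genes in H1299 (squares), A549 (triangles) and HBE (circles), 1 library each, as RPM per kb of transcript on a log axis, grouped by class. Vertical lines mark the 95th percentile of the olfactory receptor genes, 6.15 in H1299, 6.13 in A549 and 4.24 in HBE, and 10, 11 and 14 genes lie to the right of the line of their own library.

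Counted over all members, lower calls outnumbered higher ones in each pair, although 20 of 37 members in H1299 and 25 of 37 in A549 had a log2 ratio above 0 against HBE. In H1299 against HBE, 3 of 37 were called higher and 9 lower, or 8.11% and 24.3%, beside 8.05% and 4.94% of all 18570 genes compared. In A549 against HBE the counts were 3 and 6, or 8.11% and 16.2%, beside 6.14% and 3.36% of 18621 genes. In H1299 against A549 they were 3 and 7, or 8.11% and 18.9%, beside 4.09% and 4.82% of 18641 genes. Relative to the median gene the counts were 3 and 10 in H1299 against HBE, 2 and 6 in A549 against HBE, and 3 and 7 in H1299 against A549, beside 4.12% and 8.06%, 3.31% and 5.89%, and 3.91% and 4.95% of all genes. Higher shares than in all genes were thus found among the lower calls of all 3 pairs, and the members were also read more deeply, with medians of 982, 876 and 927 reads over both libraries in H1299 against HBE, A549 against HBE and H1299 against A549, beside 710, 736 and 729 for all genes. The median log2 ratios of the members were 0.25, 0.53 and -0.19 in H1299 against HBE, A549 against HBE and H1299 against A549, beside 0.38, 0.35 and 0.02 for all genes. These comparisons share libraries and are not independent.

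**Figure D4:**
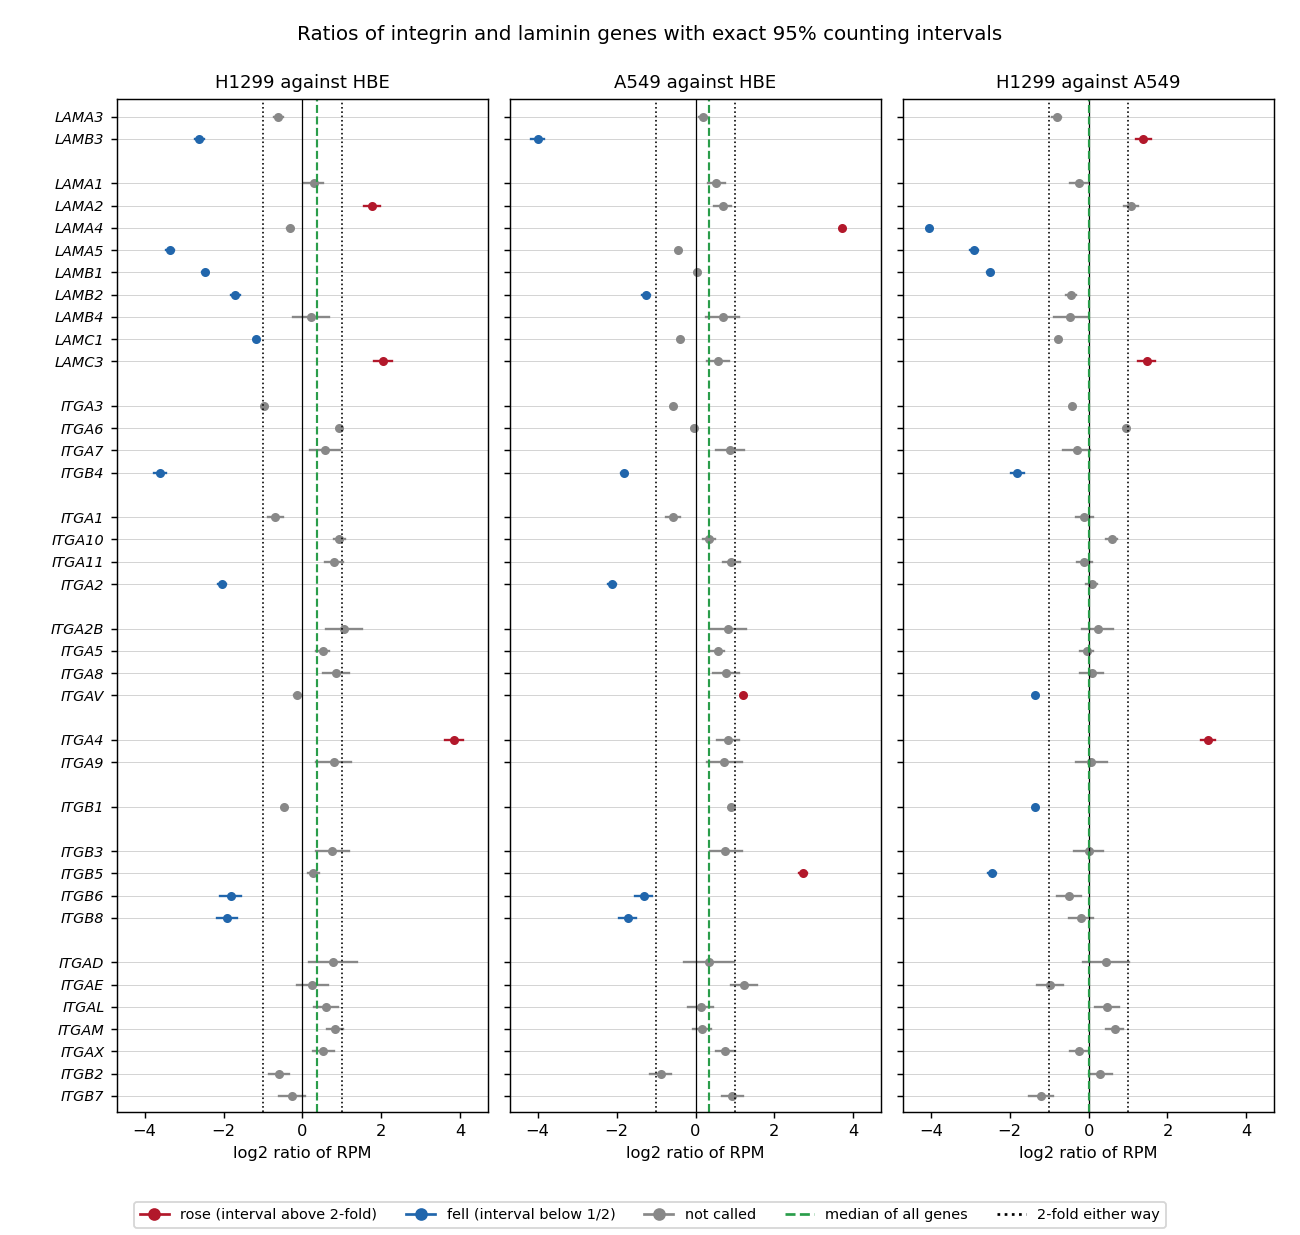
Log2 ratio of RPM (horizontal axes) of 37 genes in H1299 against HBE, A549 against HBE and H1299 against A549, with exact 95% counting intervals as bars. Red genes rose and blue genes fell by the 2-fold limit (dotted), 3 and 9, 3 and 6, and 3 and 7 genes, and the dashed line marks the median of all genes at 0.38, 0.35 and 0.02.

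H1299 had the highest level of 11 members, 7 of them beyond the counting error of the next line, A549 that of 15, 9 of them beyond it, and HBE that of 11, all beyond it. With TMM factors these numbers were 11, 13 and 13.

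The machinery that couples integrins to actin was described by a pair of lists. Of 10 genes of talin, kindlin and the ILK complex, 1 was called higher and 0 lower in H1299 against HBE, 2 and 0 in A549 against HBE, and 0 and 1 in H1299 against A549, with median log2 ratios of 0.37, 0.44 and -0.30. TLN1, the talin that activates integrins, had 268 RPM in H1299, 214 in A549 and 281 in HBE. ILK, the pseudokinase of the complex, had 52.6, 57.5 and 62.9 RPM in H1299, A549 and HBE, its partner PARVA 29.8, 41.0 and 44.3 RPM, and FERMT2, a kindlin, 55.3, 35.4 and 28.5 RPM. None of these 4 was called in any pair. Of 15 focal adhesion adaptors and kinases, 3 were called each way in H1299 and likewise in A549 against HBE, and 4 higher and 3 lower in H1299 against A549, with median log2 ratios of 0.50, 0.59 and 0.16. ACTN4, an actinin, had 559 RPM in H1299, 501 in A549 and 148 in HBE and rose 3.78-fold (3.66 to 3.90) and 3.38-fold (3.27 to 3.49) against HBE. VCL, vinculin, had 323, 156 and 109 RPM in H1299, A549 and HBE and rose 2.96-fold in H1299 against HBE (2.85 to 3.07). ACTN1 had 300, 248 and 154 RPM and BCAR1, a docking protein of focal adhesions, 339, 297 and 223 RPM, and neither was called.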

How the data were processed

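Ribosome footprints of H1299, A549 and HBE were analysed, 1 library per line. According to the methods of the study, rRNA was depleted with a kit and with probes, and trimmed reads were mapped with FANSe2 to RefSeq RNA sequences; no version of this tool is given in the sources used here, and the submitters' processing notes name hg19. The authors deposited a read count per transcript, not normalized, and an RPKM that they computed from that count, the whole transcript length and all mapped reads; the count was used, and the RPKM only to check this relation. Footprints lie mainly on coding sequence, so levels per kb of whole transcript understate genes with long untranslated ends. Positions of reads along transcripts were not analysed here.

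Reads were summed over the NM rows of each of 19262 genes and divided by the sum of NM reads. Reads had exact 95% Poisson intervals, and ratios had conditional binomial intervals. Reads without molecular identifiers are not independent molecules. A log2 ratio used 0.5 added reads. A gene was called when its interval lay wholly beyond 2-fold with at least 20 reads over both libraries. The method was tested on simulated data. The simulated counts followed the Poisson model that the intervals assume, so this test does not cover duplicated reads or differences between cultures. Gene positions come from GENCODE 44 lifted to GRCh37, motifs and windows from RefSeq sequences. TMM and upper quartile factors came from edgeR 4.0.16, used for these factors alone, and all else from Python 3.11.15, pandas 2.3.3 and scipy 1.17.1. The genes named are every member described, the 4 with most RPM of each of 5 partner lists, 4 checks of the labels, and isoforms of members with at least 1000 reads in a library; some genes of the rule and of the lists are not reported here; genes outside this rule are marked or belong to marker lists. The members and lists were chosen with earlier results of these data known. Alternatives covered scaling, the choice of rows, the read minimum, the limit of a call and the olfactory receptor level; the coding length from GENCODE and the orders under TMM were chosen after seeing the data.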

Additional observations from a re-analysis of the deposited data

Results flagged for a closer look

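These reads lie on non-coding (NR) rows, which the sums over NM rows do not use, and are listed because they exceed the 3 reads that a count of 0 allows. LAMB2P1, a pseudogene named after LAMB2, had 142 reads in H1299, 151 in A549 and 91 in HBE. ITGB2-AS1, an antisense gene of ITGB2, had 74 reads in H1299, 63 in A549 and 52 in HBE, and ITGA9-AS1, an antisense gene of ITGA9, had 80, 53 and 38. The non-coding rows of ITGA2 had 7, 8 and 8 reads in H1299, A549 and HBE, and that of ITGB7 had 11, 12 and 6. Rows that share sequence with a coding gene can share its reads.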

How the results depend on the processing

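No paired analysis was possible because no line had a second library. The depth limits the low members most, with as few as 42 reads, and how far cultures of a line differ is unknown. The coding lengths of RefSeq proteins were not run, and GENCODE lengths took their place. Numbers of members called stayed within 1.5 times in 58 of 66 combinations of setting, pair and direction. Some settings could not change a call. Dropping the minimum of 20 reads is such a setting, since each member had at least 42 reads in each library. With a ratio of at least 4 required, the lower members were 5 for H1299 and 2 for A549, each against HBE, and 4 for H1299 against A549, and the higher ones were 1 in H1299 against A549. With intervals beyond 1.5-fold, 7 were higher in each cancer line against HBE, and 5 higher and 11 lower in H1299 against A549; these changes follow from the limits. The median log2 ratio of the members moved by less than a fixed width in 26 of 30 combinations of setting and pair. That width was the median half-width of the counting intervals of single members, and it does not measure the error of the median itself. The median log2 ratio was -0.11 with TMM factors and -0.12 centred on the median gene in H1299 against HBE. In A549 against HBE it was 0.19 and 0.18, and these settings move all genes. The number above the median of the olfactory receptors was 34 in H1299, 34 in A549 and 31 in HBE, and 0 in each line were above their maximum. With GENCODE coding lengths 13, 14 and 20 members were above the 95th percentile. Of 217 values of single called members under other scalings or rows, 212 kept their call and none changed sign. For members with a single NM row, counting only the NM row with most reads could not change the value. ITGAV in A549 against HBE lost its call under 4 scalings, ITGB6 in A549 against HBE lost it with the NM row with most reads, and ITGA3 in H1299 against HBE became called as lower under 4 scalings. For all genes, the lower calls in H1299 against HBE were 917 as reported and 1469 with TMM factors, and the higher ones 1495 and 781; in A549 against HBE they were 626 and 1068, and 1143 and 631. Without the 10 genes with most reads in the NM sum, the median log2 ratio of all genes was 0.21 in H1299 and 0.19 in A549 against HBE, beside 0.38 and 0.35 with them.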
